A study of Mus musculus with 18 samples.

Results

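The genes described here are 10 of the TGF-beta pathway: the ligand gene *Tgfb1*, the receptor genes *Tgfbr1*, *Tgfbr2* and *Tgfbr3*, the signal transducers *Smad2*, *Smad3* and *Smad4*, and the inhibitors *Smad7*, *Ski* and *Skil*. They were chosen by name, with earlier results of these data known. By their Ensembl identifier all 10 were found among the 45706 genes of the expression tables. All 10 also passed the filter on low counts, which kept 12255 genes. The cells were CD8+ T cells of OT-I mice, which carry a transgenic receptor for an ovalbumin (OVA) peptide, cultured with IL-7 and IL-15. Repeat peptide stimulated cells, an *in vitro* model of exhausted cytotoxic T cells (CTLs), received 10 ng/ml OVA peptide daily and were kept with it up to day 8, whereas single peptide stimulated cells met it at the start and were then rested. From day 5 both were treated for 3 days with DMSO or with 1 µM ibrutinib, a covalent inhibitor of the kinase BTK. This gave 4 libraries of repeat peptide cells with DMSO, 5 of repeat peptide cells with ibrutinib, 5 of single peptide cells with DMSO and 4 of single peptide cells with ibrutinib. All 18 libraries came from OT-I cells of mice that the strain entry of the labels gives as wild type, and their ages are not given in the sources used here. Each culture belongs to a lettered experiment. Experiments A to D provided all 4 groups, E only repeat peptide cells with ibrutinib and F only single peptide cells with DMSO. The letters stand for the genotype entry of the labels, which in B to E names a *btk* knockout. No source used here says whether the experiments were separate mice, so the p-values measure the spread between these cultures.

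TGF-beta is secreted in a latent form and, once released, binds a complex of the kinases TGFBR1 and TGFBR2, a step that the coreceptor betaglycan (TGFBR3) assists. The receptor phosphorylates SMAD2 and SMAD3, which bind SMAD4, enter the nucleus and act on transcription, while SMAD7 blocks the receptor and SKI and SKIL (SnoN) hold SMAD complexes in check. In CD8+ T cells the pathway is known to restrain proliferation and effector functions and to induce CD103, the integrin of tissue-resident cells encoded by *Itgae*.

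Libraries held between 23445922 and 51995372 expected counts, with a median of 27420966. Genes that define CD8+ T cells summed to 2759 to 3794 TPM (RSEM's length-scaled share of all transcripts) per library, and *Cd4* had at most 2 counts in any library. Of 6 B cell, 7 myeloid, 5 platelet, 4 erythroid and 5 stromal markers, 4 or 5, 3 to 5, 2 to 4, 3 or 4 and 4, respectively, stayed under 1 TPM in all libraries of a group. The stromal list summed to 29.0 to 72.2 TPM, of which *Pecam1*, a gene that T cells also express, was the only gene above that level. The 3 NK cell markers summed to 2.64 to 11.6 TPM in repeat peptide libraries with DMSO and 2.69 to 25.7 with ibrutinib, against 0.59 to 3.67 and 1.4 to 2.73 in single peptide libraries. Of these markers *Klrb1c* was higher in repeat peptide cells, 3.46-fold with DMSO (adjusted p = 0.0109) and 4.68-fold with ibrutinib (adjusted p = 0.00464), where the groups overlapped. *Ncr1* went the other way with DMSO (log2 fold change -4.56, adjusted p = 0.0309), at a mean of only 4.89 normalized counts and with overlap. The genes that define CD8+ T cells went both ways between repeat and single peptide cells with DMSO. The CD8 chain gene *Cd8b1* (2.90-fold, adjusted p = 5.48e-08), *Cd247* (2.17-fold), *Cd8a* (1.25-fold) and *Cd2* (1.32-fold) were lower in repeat peptide cells. *Cd3g* (1.59-fold), *Cd5* (1.34-fold) and *Cd3e* (1.175-fold, adjusted p = 0.0443) were higher. The B cell gene *Cd79b* was 2.95-fold lower (adjusted p = 0.00187), whereas *Cd22* was higher with overlap (log2 fold change 2.53, adjusted p = 0.0316). *Cd22* averaged only 12.8 normalized counts. *Foxp3*, the factor of regulatory T cells, had 0 to 7 counts in repeat peptide cells with DMSO, 7 to 67 with ibrutinib, 53 to 453 in single peptide cells with DMSO and 69 to 775 with ibrutinib. Of the myeloid markers, *Cd68* was 5.51-fold higher in repeat than in single peptide cells with ibrutinib (adjusted p = 0.000286) and 1.67-fold higher with DMSO (adjusted p = 0.144). *Cd14* was higher without overlap with DMSO (adjusted p = 6.46e-07) and with ibrutinib (adjusted p = 3.62e-05), at a mean of only 18.1 normalized counts. *Itgam* was lower with DMSO, with overlap (log2 fold change -1.82, adjusted p = 0.0223). The part of these markers in the results below was not tested. In the ibrutinib library of experiment E, the 10 most abundant genes held 14.1% of all TPM. The other 8 repeat peptide libraries had 8.98% to 11.2%, and single peptide libraries had 10.4% to 14.8%. Results that rest on the library of experiment E are given without it too.

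*Smad3*, *Tgfbr2* and *Tgfbr1* lie on chromosomes 9, 9 and 4 of GRCm38, from 63646767 to 63757994, from 116084293 to 116175360 and from 47353222 to 47414931. *Tgfb1* lies on chromosome 7 from 25687002 to 25705077, *Tgfbr3* on chromosome 5 from 107106570 to 107289629, *Ski* on chromosome 4 from 155154075 to 155222592 and *Skil* on chromosome 3 from 31095058 to 31122577. Promoter sequences of RefSeq (GRCm38.p6) were at hand for 5 of the 10 genes, and the 250 bases before the transcription start are shown for *Smad3*, the member with the widest range of levels, for *Tgfb1*, which moved in the opposite direction, and for the receptor gene *Tgfbr2*. Capitals mark CAGAC, the SMAD box, and GGAAA, the core that NFAT factors bind, on either strand.
*Smad3*, minus strand, chr9:63757995-63758244: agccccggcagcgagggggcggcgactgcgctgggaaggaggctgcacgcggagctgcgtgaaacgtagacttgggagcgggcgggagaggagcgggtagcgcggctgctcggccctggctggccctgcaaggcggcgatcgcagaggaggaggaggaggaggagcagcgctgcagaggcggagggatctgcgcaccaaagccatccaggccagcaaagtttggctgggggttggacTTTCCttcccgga
*Tgfb1*, plus strand, chr7:25686752-25687001: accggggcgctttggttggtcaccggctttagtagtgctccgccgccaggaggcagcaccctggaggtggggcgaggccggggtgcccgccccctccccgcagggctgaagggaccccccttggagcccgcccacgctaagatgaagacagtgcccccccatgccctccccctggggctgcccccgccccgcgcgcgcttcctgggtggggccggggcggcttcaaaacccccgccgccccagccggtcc
*Tgfbr2*, minus strand, chr9:116175364-116175613: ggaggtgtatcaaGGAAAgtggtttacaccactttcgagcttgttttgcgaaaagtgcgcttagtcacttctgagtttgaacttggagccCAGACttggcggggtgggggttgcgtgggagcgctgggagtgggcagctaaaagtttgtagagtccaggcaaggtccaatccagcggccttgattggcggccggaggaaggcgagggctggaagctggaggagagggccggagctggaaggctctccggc
The *Smad3* window held 1 GGAAA and no CAGAC, the *Tgfb1* window neither, and the *Tgfbr2* window 1 of each. Among 32536 distinct windows of this length, 42.2% held CAGAC and 55.7% held GGAAA, so both letter runs are common in windows of this kind. The SMAD palindrome GTCTAGAC, in 0.169% of all windows, and the AP-1 element TGANTCA, in 6.73%, were in none of the 3. The bases were 69.2% G or C for *Smad3*, 75.2% for *Tgfb1* and 58.4% for *Tgfbr2*.

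TPM, which is scaled to transcript length, allows members to be set beside each other. In every group *Tgfb1* had the highest median level and *Tgfbr2* the next. The genes *Smad2*, *Smad4* and *Smad7* lie on chromosome 18. In repeat peptide cells with DMSO, *Tgfb1* reached a median of 165 TPM (153 to 184), followed by *Tgfbr2* at 35.6 TPM (28.9 to 41.3), *Smad4* at 24.9 TPM (19.2 to 30.2) and *Smad2* at 24.5 TPM (23.7 to 30.8). The ranges of *Tgfbr2*, *Smad4* and *Smad2* overlapped with their neighbours in this order. *Ski* (13.7 TPM), *Skil* (11.6 TPM), *Smad7* (7.85 TPM) and *Tgfbr1* (4.11 TPM) came next without overlap, and *Tgfbr3* (0.95 TPM) and *Smad3* (0.86 TPM) formed the bottom of the order with overlapping ranges. In single peptide cells with DMSO, *Tgfb1* had a median of 85.7 TPM (70.1 to 86.8) and *Tgfbr2* of 52.1 TPM (42.8 to 59.9). *Smad3* stood in the middle of that order, at 15.5 TPM (14.8 to 27.2), with ranges that overlapped those of *Smad7* (19.2 TPM) and *Ski* (14.4 TPM). *Tgfbr3*, at 2.59 TPM (1.79 to 3.01), was the lowest of the 10.

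Transcript levels after repeat peptide stimulation were first compared with those after single peptide stimulation in cells with DMSO. Repeat peptide cells were kept with the peptide while single peptide cells were rested, so exhaustion and continued stimulation cannot be told apart. Of the 10 members, 6 were lower and 1 was higher in repeat peptide cells by edgeR's quasi-likelihood test, with a median log2 fold change of -0.73 beside -0.0022 over all tested genes. Calling a gene required an adjusted p-value below 0.05 over all genes tested, 50 or more normalized counts on average, and a log2 fold change beyond 0.2 in either direction. In this comparison 47.0% of all tested genes were called, 22.8% higher and 24.2% lower. The count of 7 members held when any library was left out and with the experiment as a block, a fit that called 53.6% of all genes.

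*Smad3* showed the widest difference. Single peptide cells with DMSO had 2324, 1819, 2098, 2001 and 2178 normalized counts in experiments A, B, C, D and F. Repeat peptide cells with DMSO had 123, 129, 56.2 and 82.2 in A, B, C and D. Every repeat peptide library thus lay far below every single peptide library, and *Smad3* was 21.5-fold lower (log2 fold change -4.42, 95% confidence interval -5.06 to -3.79, adjusted p = 2.68e-09). *Smad2*, whose protein has a closely related role, had 1178 to 1332 normalized counts in repeat peptide cells and 1275 to 1357 in single peptide cells, ranges that overlapped. Its log2 fold change of -0.06 had a confidence interval of -0.23 to 0.11, which leaves out changes of the size seen for *Smad3*. *Smad4*, the partner of both, had 1455 to 1994 against 2516 to 3403 normalized counts, without overlap, and was 1.77-fold lower (log2 fold change -0.82 ± 0.11 (SE), adjusted p = 1.15e-05).

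All 3 receptor genes were lower in repeat peptide cells. *Tgfbr3* had 145, 83.9, 142 and 127 normalized counts in repeat peptide libraries A to D and 337 to 511 in single peptide libraries. It was thereby 3.18-fold lower (log2 fold change -1.67 ± 0.25 (SE), adjusted p = 2.10e-05). *Tgfbr2*, the type II receptor that binds the ligand, fell from 6190 ± 151 (SD, n = 5) to 3791 ± 525 (SD, n = 4), a 1.63-fold difference without overlap (adjusted p = 5.83e-05). *Tgfbr1*, the type I receptor kinase, fell from 965 ± 237 (SD, n = 5) to 573 ± 163 (SD, n = 4), 1.69-fold (adjusted p = 0.00705), but its groups overlapped, since repeat peptide library A (785) lay above single peptide library C (627). In contrast, *Tgfb1* was 1.80-fold higher in repeat peptide cells. It had 6549, 7330, 7977 and 7648 normalized counts in repeat peptide libraries A to D and 3785 to 4602 in single peptide libraries (log2 fold change 0.85 ± 0.12 (SE), adjusted p = 1.46e-05).

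Among the inhibitors, only *Smad7* was called. It had 589 to 694 normalized counts in repeat peptide cells and 1672 to 2214 in single peptide cells, a 2.92-fold difference (log2 fold change -1.55 ± 0.14 (SE), adjusted p = 8.55e-08). The corepressor genes *Ski* and *Skil* had log2 fold changes of -0.33 (95% confidence interval -0.70 to 0.04, adjusted p = 0.121) and -0.21 (-0.60 to 0.19, adjusted p = 0.374), with groups that overlapped. As these are bulk samples, fewer cells with a transcript and less of it per cell cannot be told apart.

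**Figure D1:**
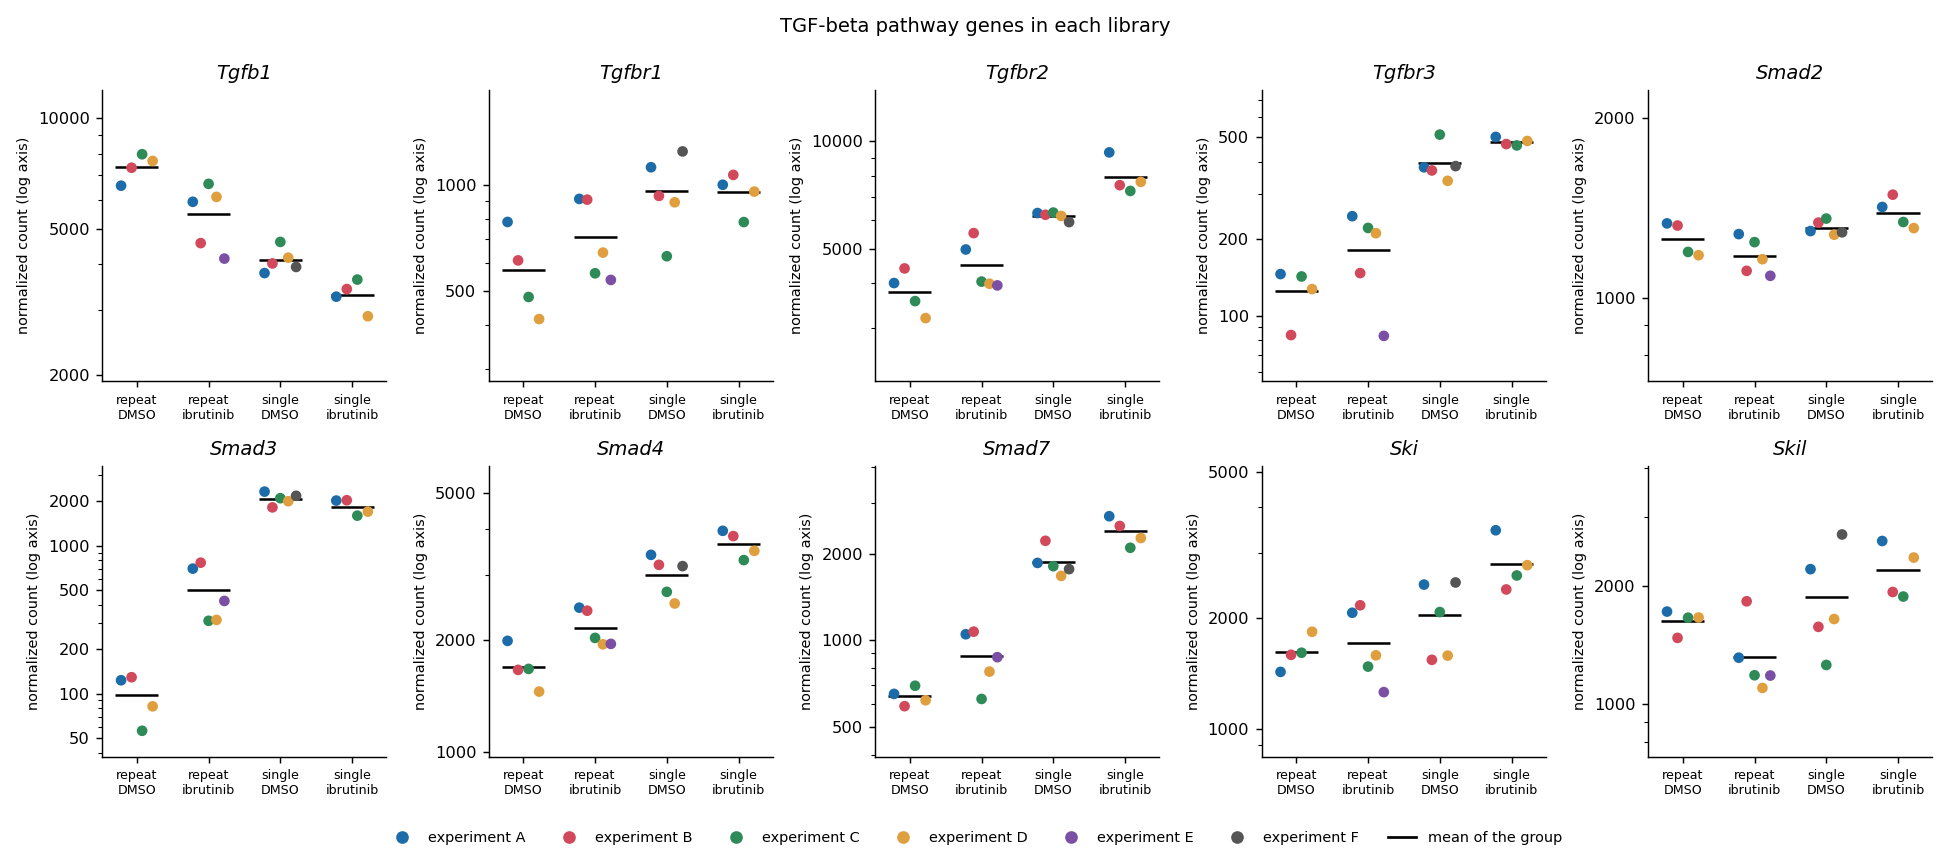
Normalized counts of the 10 genes in each of the 18 libraries (log axes, each with its own range), by group on the horizontal axis. Points are libraries coloured by experiment and bars are group means; *Smad3* rises from a mean of 97.7 in repeat peptide cells with DMSO to 504 with ibrutinib and 2084 in single peptide cells with DMSO, while *Smad2* stays between 1088 and 1488 in all libraries.

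The next comparison asked what ibrutinib changed in repeat peptide cells. *Smad3* was higher and *Tgfb1* lower with ibrutinib, and the other 8 members were not called. Over all tested genes 5.92% were called, 4.01% higher and 1.92% lower. The median log2 fold change of the members was 0.28, beside 0.0045 over all tested genes. With the experiment as a block, a fit in which the libraries of E and F carry no information, 7 members were called instead of 2 (*Tgfb1*, all 3 receptor genes, *Smad3*, *Smad4* and *Smad7*), and 13.8% of all tested genes.

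With ibrutinib, *Smad3* had 701, 769, 311, 315.5 and 424 normalized counts in repeat peptide libraries A, B, C, D and E, against 56.2 to 129 with DMSO. The lowest ibrutinib library lay above the highest DMSO library, and within experiments A to D the log2 ratios were 2.51, 2.57, 2.47 and 1.94. The fitted difference was 5.18-fold (log2 fold change 2.37, 95% confidence interval 1.78 to 2.96, adjusted p = 6.67e-05). Without the library of experiment E it was 2.43 on the log2 scale (adjusted p = 0.000119), and over all other alternatives the adjusted p-value was at most 0.00714. The ibrutinib libraries remained below all single peptide libraries, the lowest of which had 1599 normalized counts.

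*Tgfb1* had 5919, 4568, 6624, 6104 and 4145 normalized counts in ibrutinib libraries A, B, C, D and E, against 6549 to 7977 with DMSO. It was lower with ibrutinib in 4 of 4 experiments, with log2 ratios of -0.15, -0.68, -0.27 and -0.33, but the groups overlapped, as ibrutinib library C lay above DMSO library A. The 1.35-fold decrease (log2 fold change -0.43 ± 0.12 (SE), adjusted p = 0.0394) was close to the threshold. Leaving out DMSO library B, C or D, or ibrutinib library A, B or E, gave adjusted p-values of 0.0597 to 0.129, and without E the log2 fold change was -0.35 (adjusted p = 0.0816). With the offset for effective length the adjusted p was 0.0510, and with the block the log2 fold change was -0.35 (adjusted p = 0.0169).

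Several members that were not called moved the same way in all experiments. *Tgfbr3* had 245, 147, 220 and 210 normalized counts in ibrutinib libraries A to D and 83.3 in E, so that its log2 ratios within A to D were 0.75, 0.81, 0.63 and 0.73. Its fitted log2 fold change of 0.54 (95% confidence interval 0.03 to 1.05) had an adjusted p of 0.199, which became 0.0340 without library E and 0.00628 with the block. *Smad4* had 1952 to 2451 normalized counts with ibrutinib and 1455 to 1994 with DMSO. Its log2 fold change of 0.35 ± 0.11 (SE) had an adjusted p of 0.0758, with values of 0.0403 without DMSO library A and 0.00188 with the block.

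*Smad7* had 1048, 1070, 624, 777 and 872 normalized counts in ibrutinib libraries A, B, C, D and E, against 589 to 694 with DMSO. It was higher in 3 of 4 experiments and lower in C. Its log2 fold change of 0.46 ± 0.14 (SE) had an adjusted p of 0.0536, which was 0.00886 without ibrutinib library C, 0.0422 without D, 0.0255 by DESeq2's Wald test, 0.0353 with the offset for effective length and 0.0276 with the block. Without any other library it stayed above 0.05, at up to 0.137. *Tgfbr1* and *Tgfbr2* had log2 fold changes of 0.32 (95% confidence interval -0.14 to 0.77) and 0.25 (0.01 to 0.49), adjusted p-values of 0.422 and 0.2201, and ratios above 0 in 4 of 4 experiments. With the block they had 0.40 (adjusted p = 0.0354) and 0.29 (adjusted p = 0.0468). *Smad2* (-0.10, 95% confidence interval -0.26 to 0.07), *Ski* (0.08, -0.29 to 0.45) and *Skil* (-0.30, -0.70 to 0.09) passed in neither fit.

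In single peptide cells, none of the 10 members was called with ibrutinib by edgeR or by DESeq2, where 3.04% of all tested genes were called by edgeR. The unadjusted p-value was under 0.05 for 5 of them, *Tgfb1*, *Tgfbr2*, *Smad4*, *Smad7* and *Ski*, and for 1658 of all 12255 tested genes. With the block 9.09% of all genes were called, and 4 of these members: *Tgfb1* with a log2 fold change of -0.32 (adjusted p = 0.0341), *Tgfbr2* with 0.34 (adjusted p = 0.0273), *Smad4* with 0.31 (adjusted p = 0.00983) and *Ski* with 0.56 (adjusted p = 0.0286). *Smad3* had 2022, 2032, 1599 and 1702 normalized counts with ibrutinib in A to D, within or below the range with DMSO. Its log2 fold change of -0.18 had a 95% confidence interval of -0.70 to 0.34. *Tgfb1* had 2887 to 3634 normalized counts with ibrutinib and 3785 to 4602 with DMSO, ranges that did not overlap, and a log2 fold change of -0.31 ± 0.12 (SE) with an adjusted p of 0.233. The ranges of *Tgfbr2* did not overlap either, at 7260 to 9314 with ibrutinib and 5938 to 6314 with DMSO. Its log2 fold change was 0.36 ± 0.11 (SE) with an adjusted p of 0.1095.

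The difference between the ibrutinib effects in repeat and in single peptide cells was tested as an interaction. *Smad3* was the only member called, while 1.26% of all tested genes were called, or 5.54% with the block. The ratio of *Smad3* with ibrutinib to DMSO in repeat peptide cells was 5.87 times that in single peptide cells (log2 difference 2.55, 95% confidence interval 1.77 to 3.34, adjusted p = 0.00131). This difference was called under every alternative and without any library, with log2 differences from 2.35 to 2.98. For *Tgfb1* the difference was -0.12 (95% confidence interval -0.48 to 0.24), for *Tgfbr2* -0.12 (-0.45 to 0.22), for *Smad4* 0.07 (-0.27 to 0.40) and for *Smad7* 0.10 (-0.30 to 0.51). *Skil* had -0.53 (-1.09 to 0.03, adjusted p = 0.470), with ratios above 0 in 4 of 4 experiments in single peptide cells and in 1 of 4 in repeat peptide cells.

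With ibrutinib in both, 9 members were called between repeat and single peptide cells, 8 lower and 1 higher. Of all tested genes 38.4% were called, 18.7% higher and 19.6% lower. *Smad3* was 3.66-fold lower in repeat peptide cells (log2 fold change -1.87 ± 0.25 (SE), adjusted p = 1.10e-05), *Smad7* was 2.72-fold lower and *Tgfbr3* 2.64-fold lower. *Tgfb1* was 1.66-fold higher (adjusted p = 0.000123). *Ski* (1.65-fold, adjusted p = 0.00272) and *Skil* (1.66-fold, adjusted p = 0.00412) were lower and did not overlap between groups, in contrast to the DMSO groups. That contrast itself is the interaction above, which neither gene passed. *Smad2* was 1.18-fold lower (log2 fold change -0.24 ± 0.08 (SE), adjusted p = 0.0190), a call lost without repeat peptide library B (adjusted p = 0.0708) and without single peptide library A (0.0867) or B (0.0729), without a filter on low counts (0.0932) and with only the compared groups (0.081). *Tgfbr1* had a log2 fold change of -0.42 (95% confidence interval -0.87 to 0.03, adjusted p = 0.119) and was called with the block (-0.36, adjusted p = 0.0174), which called 48.6% of all genes.

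**Figure D2:**
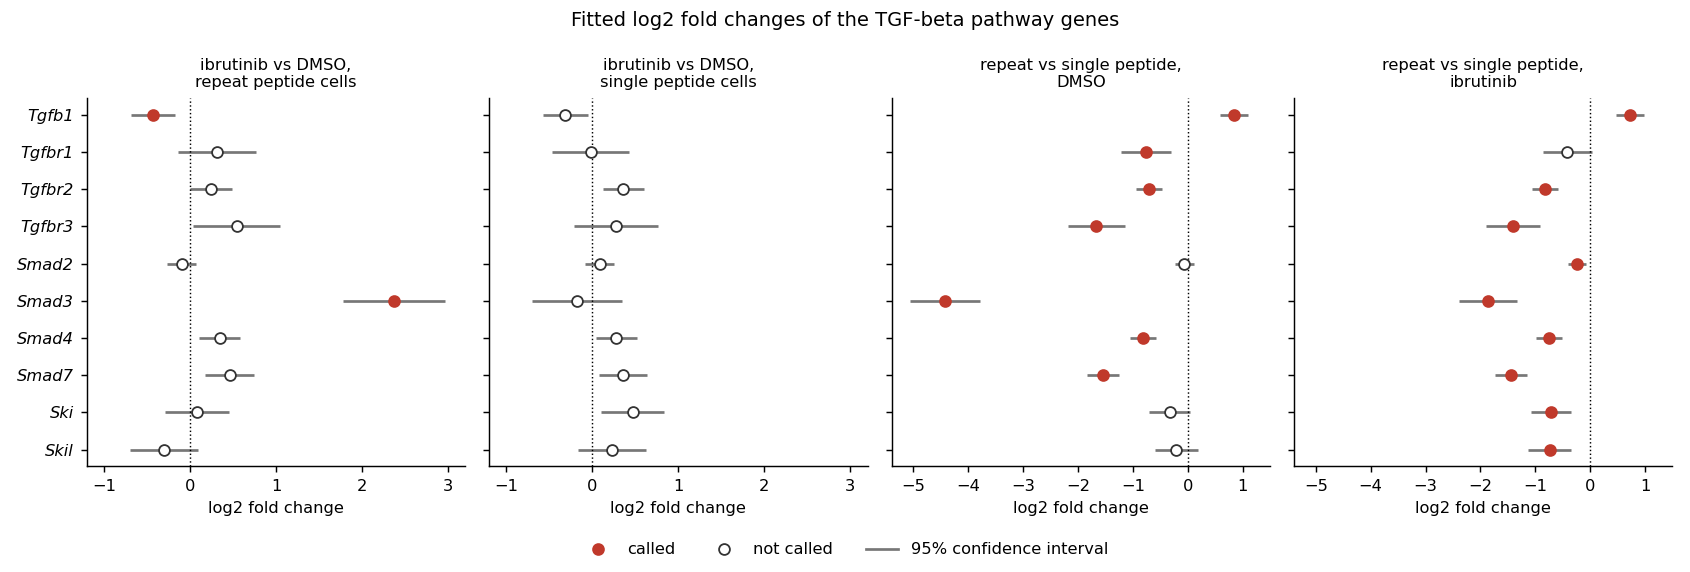
Fitted log2 fold changes of the 10 genes in 4 comparisons, with 95% confidence intervals as bars; filled points were called and open points were not. Between ibrutinib and DMSO only *Smad3* in repeat peptide cells lies beyond 1 on the log2 scale, at 2.37, and *Tgfb1* is the only member above 0 between repeat and single peptide cells. The left pair of panels and the right pair have different horizontal scales.

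Because SMAD2 and SMAD3 receive the same signal, their levels were set beside each other in TPM. In repeat peptide cells with DMSO, *Smad3* made up 3.69%, 3.97%, 1.99% and 2.83% of the summed TPM of both genes in experiments A to D. With ibrutinib it made up 22.9%, 23.7%, 9.26%, 9.98% and 21.6% in A, B, C, D and E. In single peptide cells the share was 32.8% to 51.8% with DMSO and 32.5% to 35.1% with ibrutinib. *Smad2* thus outweighed *Smad3* by a median of 30.2-fold in repeat peptide cells with DMSO and 1.38-fold in single peptide cells with DMSO. These shares are given without a test. RSEM assigned *Smad3* a weighted transcript length of 5090 bases in 13 of 18 libraries. It was shorter in repeat peptide ibrutinib libraries A (3915 bases) and E (3173 bases). The same held for single peptide DMSO libraries A (3914 bases), C (4943 bases) and D (4318 bases). A shorter length gives a higher TPM for the same count, and the highest share, 51.8%, was that of single peptide DMSO library A.

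**Figure D3:**
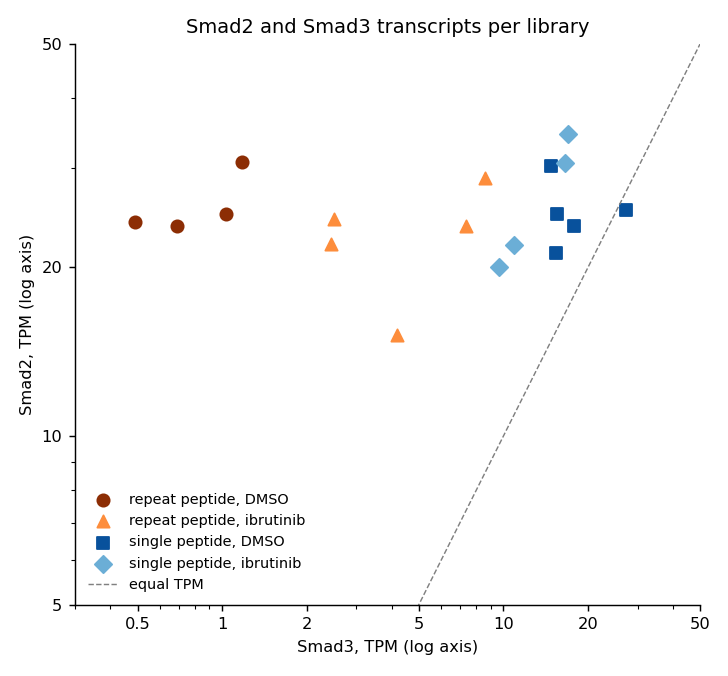
*Smad2* against *Smad3* in TPM, both on log axes, with a point per library, a symbol per group and a dashed line where both levels are equal. The groups spread along the *Smad3* axis, from 0.49 TPM in a repeat peptide DMSO library to 27.2 TPM in a single peptide DMSO library, while *Smad2* lies between 15.1 and 34.6 TPM.

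A list of 13 genes, drawn up as transcripts that TGF-beta can induce, was then examined, and 9 of them were tested. With ibrutinib in repeat peptide cells, 2 of the 9 were higher (*Itgae* and *Pmepa1*) and 1 was lower (*Cdkn1a*), with a median log2 fold change of 0.48 and 33.3% called, against 5.92% of all tested genes. The list was chosen with earlier results of these data known, so these shares are no test of the list as a set. *Itgae*, which encodes the alpha chain of CD103, had 74.4, 205, 14.97 and 25.6 normalized counts with DMSO in A to D and 855, 1497, 194, 315.5 and 657 with ibrutinib in A, B, C, D and E. The groups overlapped through DMSO library B, but within experiments the log2 ratios were 3.52, 2.87, 3.69 and 3.62. Its fitted log2 fold change was 3.14 ± 0.66 (SE) (adjusted p = 0.00759). In single peptide cells *Itgae* had 1879 to 5434 normalized counts with DMSO and 3175 to 7213 with ibrutinib, and it was lower in repeat peptide cells with DMSO by a log2 fold change of -5.65 ± 0.73 (SE) (adjusted p = 5.45e-06). The interaction was 2.65 ± 0.85 (SE) with an adjusted p of 0.163, which became 0.0159 with the block and 0.0234 without DMSO library B.

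*Pmepa1*, whose protein limits SMAD signalling and is itself a SMAD target, had 87.2 to 146 normalized counts with DMSO and 204 to 334 with ibrutinib in repeat peptide cells, without overlap. Its log2 fold change of 1.14 ± 0.22 (SE) (adjusted p = 0.00391) was 0.73 (adjusted p = 0.161) with an offset for effective transcript length, so the call depends on how length is treated. *Ldlrad4*, another inhibitor that TGF-beta induces, had 29.2 to 76.8 and 76.4 to 153 normalized counts. Its log2 fold change of 0.84 (95% confidence interval 0.05 to 1.63) had an adjusted p of 0.199, or 0.0384 with the block. *Ldlrad4* was lower in repeat peptide cells both with DMSO (-1.07, adjusted p = 0.0232) and with ibrutinib (-0.96, adjusted p = 0.0372). The call with DMSO was lost without repeat peptide library C (adjusted p = 0.0831) or D (0.0527) or single peptide library F (0.0622), and the call with ibrutinib without any of 6 of the 9 libraries, at up to 0.270 without single peptide library A.

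*Cdkn1a*, which encodes the cell cycle inhibitor p21 and is also induced by p53, had the opposite pattern. It had 1514, 2083, 3511 and 5019 normalized counts in repeat peptide libraries with DMSO and 210 to 1028 with ibrutinib, a log2 fold change of -2.51 ± 0.46 (SE) (adjusted p = 0.00242). Single peptide cells had 38.3 to 176. *Id2*, a transcriptional regulator of effector cells, was higher in repeat peptide cells with DMSO (log2 fold change 0.55 ± 0.19 (SE), adjusted p = 0.0179) and with ibrutinib (1.11 ± 0.19 (SE), adjusted p = 0.000146). The former call was lost without DMSO library B (adjusted p = 0.0672). Between repeat and single peptide cells with DMSO, 3 genes of this list were higher and 3 were lower, so it moved in no common direction. That is 66.7% of its tested genes called, against 47.0% of all tested genes. *Cdkn2b*, with a log2 fold change of -1.62 ± 0.51 (SE), passed the adjusted p but not the minimum mean count.

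**Figure D4:**
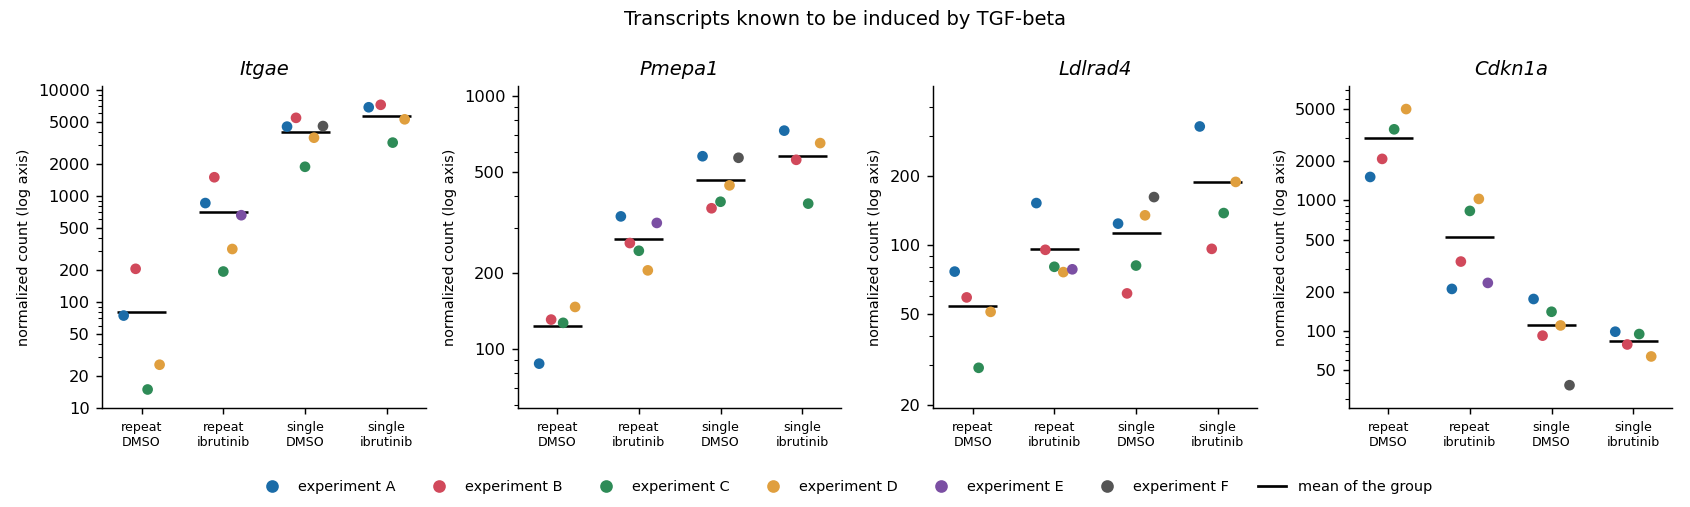
Normalized counts of *Itgae*, *Pmepa1*, *Ldlrad4* and *Cdkn1a* in each library (log axes, each with its own range), with experiments in colour and group means as bars. *Itgae* goes from 14.97 to 205 in repeat peptide cells with DMSO to 194 to 1497 with ibrutinib, and *Cdkn1a* in the other direction from 1514 to 5019 to 210 to 1028.

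The other genes of the family were compared in 5 more lists. Of 15 genes for ligands and latency, 9 were tested. Between repeat and single peptide cells with DMSO 33.3% of these were called, against 47.0% of all tested genes. With DMSO, *Ltbp3*, which encodes a latent TGF-beta binding protein, and *Itgav*, the integrin chain that helps release the ligand, were higher in repeat peptide cells, and *Thbs1*, a secreted activator of latent TGF-beta, was lower. *Ltbp3* had 193 to 805 counts in repeat peptide DMSO libraries and 0 to 6 in single peptide DMSO libraries. *Itgav* was higher by a log2 fold change of 1.43 ± 0.19 (SE) (adjusted p = 5.89e-06). *Thbs1* had 0 to 4 counts in repeat peptide DMSO libraries, 0 to 63 with ibrutinib and 71 to 169 in single peptide DMSO libraries. *Lrrc32*, which encodes the surface anchor GARP of latent TGF-beta, was called only between repeat and single peptide cells with ibrutinib (log2 fold change 0.88 ± 0.32 (SE), adjusted p = 0.0336). That call was lost when ibrutinib libraries A, C or D of repeat peptide cells or A or D of single peptide cells were left out, with adjusted p-values of 0.0572 to 0.106. No gene of this list was called with ibrutinib in repeat peptide cells by edgeR. There 1 had an unadjusted p-value under 0.05, as did 2647 of all 12255 tested genes.

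Among 8 tested genes for other receptors of the family, *Acvrl1*, encoding the type I receptor ALK1, had no count in any repeat peptide DMSO library and 97 to 244 counts in single peptide DMSO libraries, so it was at least 58.4-fold lower against a floor of 3 counts per library. With ibrutinib, repeat peptide libraries had 0 to 6 counts. Although *Acvrl1* is counted as the 1 gene of this list called there, it met the minimum mean count only through the single peptide groups, so nothing is read from that call. *Acvr1b*, the activin receptor ALK4 that also signals through SMAD2 and SMAD3, was lower in repeat peptide cells with DMSO by a log2 fold change of -1.35 ± 0.20 (SE). The receptors of the BMP branch *Acvr1* (1.94 ± 0.39 (SE)) and *Bmpr2* (1.58 ± 0.17 (SE)) were higher, as was the coreceptor *Eng* (1.81 ± 0.70 (SE), adjusted p = 0.0348). The *Eng* call was lost without DMSO libraries C or D of repeat peptide cells or A, B, D or F of single peptide cells, at adjusted p-values of 0.0612 to 0.139. The list as a whole therefore had 3 genes higher and 2 lower. That is 62.5% called, against 47.0% of all tested genes (22.8% higher and 24.2% lower).

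Of 7 tested genes for other SMADs and partners, 5 were called in repeat peptide cells with DMSO, all lower, where 24.2% of all tested genes were lower. *Zfyve9*, which encodes the SMAD anchor SARA, moved the other way and was not called for its low mean count, with 33 to 96 counts in repeat peptide DMSO libraries and 0 to 4 in single peptide DMSO libraries (adjusted p = 9.80e-06). The 5 were *Smad5* (log2 fold change -1.11 ± 0.24 (SE)) and *Smad1* (-0.64 ± 0.12 (SE)), the transducers of the BMP branch, the acetyltransferase gene *Crebbp* (-0.67 ± 0.18 (SE)), *Trim33* (-0.52 ± 0.12 (SE)), whose protein binds SMAD2 and SMAD3, and *Tgfbrap1* (-0.47 ± 0.12 (SE)). These 5 genes were also called with ibrutinib in both groups. Without single peptide library A the adjusted p-values there were 0.0671 for *Smad1* and 0.102 for *Trim33*. No gene of this list was called by edgeR with ibrutinib in repeat peptide cells. There 1 had an unadjusted p-value under 0.05, as did 2647 of all 12255 tested genes.

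Of 13 tested genes for degradation and restraint, 5 were called in repeat peptide cells with DMSO, all lower. That is 38.5%, against 47.0% of all tested genes, and the median log2 fold change of the 13 was 0.13, so the list as a whole did not lean down. *Nedd4l*, a ubiquitin ligase for activated SMAD2 and SMAD3, was the most changed, at 180 to 226 normalized counts against 756 to 903 (log2 fold change -2.10 ± 0.18 (SE), adjusted p = 2.94e-08). It was also the only gene of the list called with ibrutinib in repeat peptide cells, where it had 231 to 508 normalized counts (log2 fold change 0.76 ± 0.17 (SE), adjusted p = 0.0113). This *Nedd4l* call was lost once the single peptide groups were left out of the fit (0.78, adjusted p = 0.0733). The ubiquitin ligase genes *Smurf1* (-1.44 ± 0.17 (SE)), *Smurf2* (-0.61 ± 0.17 (SE)) and *Rnf111* (-0.88 ± 0.25 (SE)) and the corepressor gene *Tgif1* (-0.59 ± 0.15 (SE)) were lower with DMSO. All 5 were also called with ibrutinib in both groups. The *Rnf111* and *Smurf2* calls there (adjusted p = 0.0473 and 0.0392) were lost without repeat peptide libraries C, D or E or single peptide libraries A, B or D, and for *Rnf111* also repeat peptide library A, at up to 0.147 and 0.198. In the TAK1 arm, which TGF-beta uses besides SMADs, *Map3k7* (0.41 ± 0.08 (SE)) was higher and *Traf6* (-0.57 ± 0.10 (SE)) and *Tab3* (-0.34 ± 0.13 (SE)) were lower with DMSO. The *Tab3* call was lost without repeat peptide library B or D or single peptide library F (adjusted p = 0.0594 to 0.115), with only the compared groups (0.0628) and with the offset for effective length (-0.28, adjusted p = 0.399). *Tab2* was called with ibrutinib only (0.40 ± 0.14 (SE), adjusted p = 0.0246), but not without single peptide library D (0.0729). In single peptide cells no gene of any of these lists was called with ibrutinib by edgeR. There 2 had an unadjusted p-value under 0.05, both of the list for ligands and latency, as did 1658 of all 12255 tested genes.

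**Figure D5:**
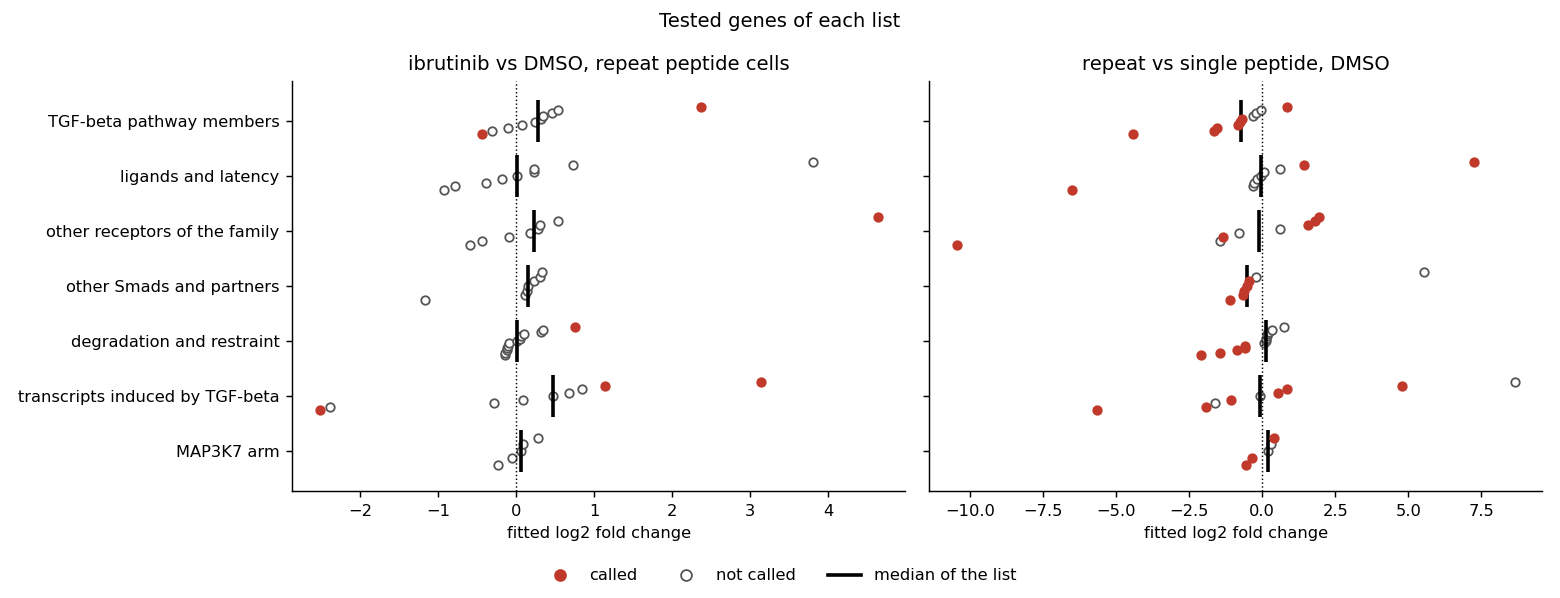
Fitted log2 fold changes of the tested genes of each list, for ibrutinib against DMSO in repeat peptide cells (left) and for repeat against single peptide cells with DMSO (right). Filled points were called, open points were not, and bars are list medians, which for the 10 members are 0.28 and -0.73. Values of genes without counts in a group, such as *Acvrl1*, depend on the prior count of the fit and are not fold changes to be read.

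RSEM also writes a mean transcript length per gene and library, weighted by the shares of its transcripts, which reads transcript use. Among the 50 tests of 10 members in 5 comparisons, none had an adjusted p under 0.05 (limma over 8929 genes, lowest adjusted p = 0.599), and 4 had an unadjusted p under 0.05. The share of all genes past that threshold was 0.0224% with ibrutinib in repeat peptide cells, 1.28% between repeat and single peptide cells with DMSO and 0.146% with ibrutinib, 0.0112% for the interaction and 0.0% with ibrutinib in single peptide cells.

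The genes with the most similar course were sought for the 6 members whose group means spanned at least 1 on the log2 scale. Likeness was the root mean square difference of log2(normalized count + 1), centred per gene, over the 18 libraries. *Smad3*, which spanned 4.47, was closest to *Nod1* (0.28), *S1pr1* (0.39) and *Klf3* (0.40). *Smad4* was closest to *Mbp* (0.08), *Dgka* (0.10) and *Zfp36l2* (0.10), and *Smad7* to *Bcl11b* (0.15), *Slc43a2* (0.16) and *Crlf3* (0.18). *Tgfbr2* was closest to *Ppp1r13b* (0.11), *Sun2* (0.13) and *Dock2* (0.13). *Tgfbr3* had no neighbour nearer than *Hs6st1* (0.31), *Lef1* (0.32) and *Bcl9l* (0.33), and *Tgfb1* had *Tagln2*, *Suv39h1* and *Tfdp1* at 0.11 each.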

How the data were processed

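RNA-seq was done on 18 cultures of OT-I CD8+ T cells in 4 groups. The authors trimmed reads with Trim Galore and mapped them to GRCm38 with RSEM 1.3.1, which runs STAR as aligner. The deposited files hold RSEM's expected counts, in which ambiguous reads are split between genes, its TPM, which is scaled to transcript length and to the same sum in each library, and its weighted lengths. Reads shared with similar genes can therefore move a count. The submitters' processing notes also name SAMtools 1.10, R 4.0.3 and DESeq2 1.30.0.

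Genes were named by GENCODE M21 (45143 of 45706 matched), and 27903 protein-coding or lncRNA genes, with 98.5% of counts, were kept. Expected counts were rounded and fitted in R 4.3.3 with edgeR 4.0.16 (TMM, filterByExpr, glmQLFit robust, glmQLFTest), all 4 groups in a single fit. Normalized counts are scaled to the mean effective library size of 29285633. Thresholds follow the study's methods. Levels between genes were compared in TPM, without a test. Weighted lengths were tested with limma 3.58.1. Alternatives were DESeq2 1.42.0, its size factors, no filter, all gene types, only the compared groups, an offset for effective length, the experiment as a block, and each library left out.

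Libraries of the same experiment in different groups deviated together (24 pairs, correlations 0.138 to 0.461, median 0.30, against a median of -0.071 in 97 other pairs), so the experiment, taken from the genotype entry of the labels, pairs them. Libraries of a group differed beyond sampling noise in all 32 pairs (chi-square per degree of freedom at least 28.7). The fits were tested on simulated data. The members and lists were chosen with earlier results of these data known. Named genes were the members, up to 4 called genes per list and comparison with the largest absolute log2 fold change, and *Itgae*, *Pmepa1* and *Ldlrad4*.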

Additional observations from a re-analysis of the deposited data

Results flagged for a closer look

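The ibrutinib effect on *Smad3* differed between repeat and single peptide cells, by 2.55 on the log2 scale in the interaction test (adjusted p = 0.00131). In 12 of 152 groups tested for the named genes, 1 library stood apart from the rest of its group (chance alone flags about 1 in 20 groups, here 7.6). Of the members, only *Tgfbr3* was among them: single peptide DMSO library C had 511 normalized counts and the others 337 to 385. For *Thbs1*, repeat peptide ibrutinib library B had 71.7 (the others at most 16.98), and single peptide ibrutinib library C had 108 (the others 232 to 256). *Eng* had 66.3 in single peptide DMSO library C (the others 8.95 to 18.5). *Bmpr2* had 305 in ibrutinib library E (the others 529 to 613). *Acvr1b* had 673 in single peptide ibrutinib library C (the others 930 to 970). *Smad1* had 516 in repeat peptide DMSO library A (the others 413 to 431). *Smurf2* had 918 in repeat peptide DMSO library A (the others 650 to 695) and 1483 in single peptide DMSO library A (the others 952 to 1061). *Ldlrad4* had 153 in repeat peptide ibrutinib library A (the others 76.4 to 95.6). *Traf6* had 3178 in single peptide ibrutinib library C (the others 2759 to 2813), and *Tab3* had 881 in single peptide DMSO library F (the others 664 to 710).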

How the results depend on the processing

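With ibrutinib in repeat peptide cells, 2 members were called. The count was 1 without a filter on low counts and 1 when the other groups were left out of the fit, in both of which *Tgfb1* was lost, 7 with the experiment as a replicate block, and 1 to 3 when a library was left out. With ibrutinib in single peptide cells it was 0, and 4 with the replicate block. With the offset for effective length it stayed at 2, but *Tgfb1* was lost and *Smad7* gained. In the other comparisons the count stayed within 1.5 times its value, at 7 in all alternatives between repeat and single peptide cells with DMSO, 8 to 10 with ibrutinib, 1 for the interaction and 0 for transcript length. Over all genes, those called with ibrutinib in repeat peptide cells numbered 726, against 1694 with the block, 1118 by DESeq2 and 464 when the other groups were left out. It fell to 354 without DMSO library D, 393 without C and 478 without ibrutinib library A. In single peptide cells 373 genes were called, against 602 by DESeq2, 181 when the other groups were left out, and 198, 239, 131, 205 and 152 without DMSO library C or D or ibrutinib library A, B or D. The interaction had 154, against 339 by DESeq2, 84 without repeat peptide DMSO library C and 89 without single peptide ibrutinib library D. Among other named genes, *Eng* with DMSO (adjusted p = 0.0629) and, with ibrutinib, *Lrrc32* (0.0874), *Rnf111* (0.0972) and *Smurf2* (0.0545) lost their calls between repeat and single peptide cells without a filter on low counts. With only the compared groups *Lrrc32* (0.0839), *Smad1* (0.0501), *Rnf111* (0.0671) and *Smurf2* (0.0658) lost theirs. The sign reversed for *Ski* with ibrutinib in repeat peptide cells without ibrutinib library B (-0.0115, from a range of -0.0115 to 0.17 over left-out libraries). It reversed for *Tgfbr1* in single peptide cells with the block (0.11). Over left-out libraries *Tgfbr1* ranged from -0.14 to 0.0926 and reversed without DMSO library A (0.04), DMSO library F (0.0926) or ibrutinib library C (0.05). The interaction of *Ldlrad4* reversed without repeat peptide DMSO library C (-0.11), repeat peptide ibrutinib library A (-0.09), single peptide DMSO library F (-0.06) or single peptide ibrutinib libraries B (-0.11) or C (-0.0012), in a range of -0.11 to 0.54. None of these was called in either direction, and the cause was not tested. Of 880 values of members under alternatives, 845 kept their direction and their side of the threshold. Beside the results given with it, the block changed no other call of a member.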

Other observations

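*Foxp3*, which TGF-beta can induce in T cells, was present without *Cd4*. In single peptide cells with DMSO it had 70.7, 490, 79.0, 107 and 67.7 normalized counts in experiments A, B, C, D and F, and with ibrutinib 65.4, 726, 95.5 and 123 in A to D. Experiment B had the highest value in each of the 4 groups, with 6.91 in repeat peptide cells with DMSO and 76.2 with ibrutinib. *Foxp3* was lower in repeat than in single peptide cells with DMSO (edgeR, adjusted p = 0.000223). Between ibrutinib and DMSO in repeat peptide cells its groups did not overlap and the adjusted p was 0.0690. No fold is given, since the repeat peptide DMSO libraries lay near 0. *Zbtb7b*, the factor of the CD4 lineage that activated CD8+ T cells can also express, went the other way, with a log2 fold change of 2.37 ± 0.23 (SE) between repeat and single peptide cells with DMSO (adjusted p = 2.00e-07).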
